A study of Mus musculus with 2 samples.

Results

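The genes described here are the phagocyte NADPH oxidase subunits Cybb, Cyba, Ncf1, Ncf4 and Rac2, together with the mitochondrial superoxide dismutase Sod2. They are 6 of the 32285 genes in the deposited count tables, chosen by symbol, and each symbol matched exactly 1 row. The libraries are droplet single-cell RNA sequencing of immune cells from mouse tumours, 1 library labelled Control and 1 labelled Motolimod-treated, after the small-molecule Toll-like receptor 8 agonist motolimod. Tumours of 5 biological replicates per group were digested, and CD45-positive cells were enriched on magnetic beads. The stated purity was over 95% and the stated viability over 85%. The labels name no strain, age, tumour model, dose or time for either group, and they do not say whether the replicates of a group were pooled into its library. With 1 library per group there is no replicate and no test: intervals are 95% intervals for counting error only, and a gene is counted as higher or lower where the library ratio reached 1.5-fold.

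The phagocyte oxidase moves electrons from NADPH across a membrane to oxygen and so makes superoxide, which neutrophils and macrophages use against microbes. Its membrane core, cytochrome b558, is a pair of Cybb (gp91phox, the catalytic subunit) and Cyba (p22phox, which stabilises it). The cytosolic subunits Ncf1 (p47phox, the organiser) and Ncf4 (p40phox, which binds a phagosomal lipid) join the core on activation with the small GTPase Rac2. Sod2 is not part of the enzyme: it turns superoxide inside mitochondria into hydrogen peroxide, and its gene is a well-known target of NF-kB.

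In the mm10 annotation Cybb lies on the minus strand of chromosome X (chrX:9435252-9487771), Cyba on 8 (chr8:122424776-122432930, minus) and Ncf1 on 5 (chr5:134220053-134229625, minus). Ncf4 (chr15:78244801-78262580, plus) and Rac2 (chr15:78559167-78572783, minus) share chromosome 15, with 296587 bp between them, and Sod2 lies on chromosome 17 (chr17:13006846-13040063, plus). Cyba overlaps Gm20388 and Ncf1 overlaps Gtf2ird2, each on the opposite strand, so their counts depend on the strand setting of the authors' counting. The labels name a 3′ kit, which the barcodes did not settle, so reads of each overlapping pair may not be told apart. RefSeq promoters (GRCm38.p6, 250 bases before to 50 after the start) matched Cybb, Cyba, Ncf1 and Sod2. Those of Cybb and Sod2 are shown because the results turn on these genes, Cybb being near 0 in keratin-positive cells and Sod2 detected in every class. Both RefSeq starts lie inside the longer mm10 gene bounds given above. Capitals in the Cybb promoter (chrX:9469275-9469574, minus strand) mark the PU.1 core GAGGAA, here read on the other strand, and capitals in the Sod2 promoter (chr17:13007589-13007888, plus strand) mark the GC box GGGCGG.
Cybb: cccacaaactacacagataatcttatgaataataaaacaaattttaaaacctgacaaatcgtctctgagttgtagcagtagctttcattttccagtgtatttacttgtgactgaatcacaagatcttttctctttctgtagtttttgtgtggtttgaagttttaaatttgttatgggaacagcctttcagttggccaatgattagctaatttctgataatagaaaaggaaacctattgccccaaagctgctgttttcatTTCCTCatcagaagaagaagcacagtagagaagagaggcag
Sod2: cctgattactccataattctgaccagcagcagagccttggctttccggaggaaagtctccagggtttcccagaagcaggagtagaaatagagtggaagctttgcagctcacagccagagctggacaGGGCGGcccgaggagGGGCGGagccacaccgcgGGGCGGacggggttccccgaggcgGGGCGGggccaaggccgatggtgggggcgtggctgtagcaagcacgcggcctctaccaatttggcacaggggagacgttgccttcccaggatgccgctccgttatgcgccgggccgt
The Cybb promoter held 1 CpG and the Sod2 promoter 21, against a median of 7 over 32851 promoters of the same length. Searched on both strands, GGGCGG occurred 4 times in the Sod2 promoter and not in that of Cybb, and 35.7% of all promoters held it. GAGGAA occurred once in each, and in 28.3% of all promoters. A loose NF-kB type motif, held by 20.7% of promoters, matched in those of Cybb, Cyba and Ncf1 and had no match in the Sod2 window. These matches describe letters in a window and say nothing of binding.

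The control library held 127609378 UMIs (unique molecules counted) over 8099 barcodes and the motolimod library 62057685 over 10037. Of these, 7484 and 9314 barcodes were kept, with medians of 14055 and 3742.5 UMIs, and 113 barcode sequences occurred in both libraries. Barcodes were put in classes by the share of their UMIs from marker genes, none of them 1 of the 6 genes. Droplets with markers of more than 1 lineage (664 and 797) were left out, and 646 and 1117 barcodes passed no gate. Levels are UMIs per 1000000 UMIs of a class (CPM), summed over its cells, and genes were counted as measured at a mean of 10 CPM over both libraries. The neutrophils were 466 control and 2650 motolimod cells, the monocytes 370 and 223, the macrophages 3869 and 3806 and the dendritic cells 223 and 81. T cells (384 and 453) and keratin-positive cells (780 and 78) served as a comparison outside the phagocytes. The keratin-positive cells were 10.4% of the kept control and 0.837% of the kept motolimod barcodes, despite the stated CD45 purity. Levels of defining markers, which the gates themselves used, are given as a description: S100a8 stood at 21674 and 22766 CPM in neutrophils, Ly6c2 at 4291 and 3837 in monocytes, C1qa at 4136 and 2655 in macrophages and Flt3 at 102 and 98.2 in dendritic cells.

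Sod2 had the one large difference among the 6 genes. In neutrophils it stood at 213 CPM (187 to 242) in the control library and at 931 CPM (907 to 955) in the motolimod library, a ratio of 4.37 (3.84 to 5.00) that ranked 52nd of 5204 measured genes. In monocytes the levels were 312 and 439 CPM (ratio 1.41, 1.27 to 1.56), under the 1.5-fold rule. In macrophages they were 182 and 188 CPM (1.04, 1.00 to 1.07), and in dendritic cells 86.0 and 79.9 CPM (0.929, 0.713 to 1.20), where the interval includes no difference. Over 10 alternatives the dendritic cell ratio ran from 0.839 to 1.69, the latter after thinning to 1000 UMIs and past the 1.5-fold rule. That value rests on 223 and 81 cells at 1000 UMIs each and has no interval here, so no difference is drawn from it. Under the reported settings neutrophils were the one class of the 4 past that rule, and the difference between classes was not tested. T cells held 97.4 and 95.8 CPM of Sod2 and keratin-positive cells 141 and 161 CPM, so the gene was detected well outside phagocytes.

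The Sod2 difference appeared in both neutrophil states, which were separated by whether Ccl3, Ccl4 and Cstb (2 chemokine genes and a protease inhibitor gene) made up at least 1% of the UMIs. Neutrophils above that limit were 196 control and 1960 motolimod cells, and those below it 270 and 690. In the Ccl3 Ccl4 high cells Sod2 was at 269 and 1042 CPM (3.88, 3.27 to 4.64), and in the low cells at 167 and 553 CPM (3.31, 2.69 to 4.11). Within each library the high cells had the higher level, by 1.61-fold (1.23 to 2.10) in control and 1.88-fold (1.75 to 2.03) in motolimod cells. With the control library's mix of the 2 states, the ratio over all neutrophils was 3.64.

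Single neutrophils showed the same ordering after each cell was thinned to 1000 UMIs, which takes the difference in depth away. A Sod2 UMI was seen in 16.5% of control neutrophils (13.1 to 20.3) and 42.1% of motolimod neutrophils (40.2 to 44.1), and before thinning in 26.4% and 56.6%. The same thinned share was 9.14% and 7.78% in T cells, whose median depth was 6933 and 5309 UMIs against 1914.5 and 2009.5 in neutrophils. Cells with 3 or more Sod2 UMIs were 1.62% of control and 11.4% of motolimod neutrophils, and the highest thinned cell held 5 and 14 UMIs. Both the share of cells with the gene and the number of UMIs in those cells were therefore higher in the motolimod library. In macrophages 16.1% (14.9 to 17.3) and 13.4% (12.3 to 14.5) of thinned cells held Sod2, the opposite order to the summed levels. The macrophage ratio ran from 0.864 to 1.09 over 10 alternatives, of which 3 turned its direction.

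**Figure D1:**
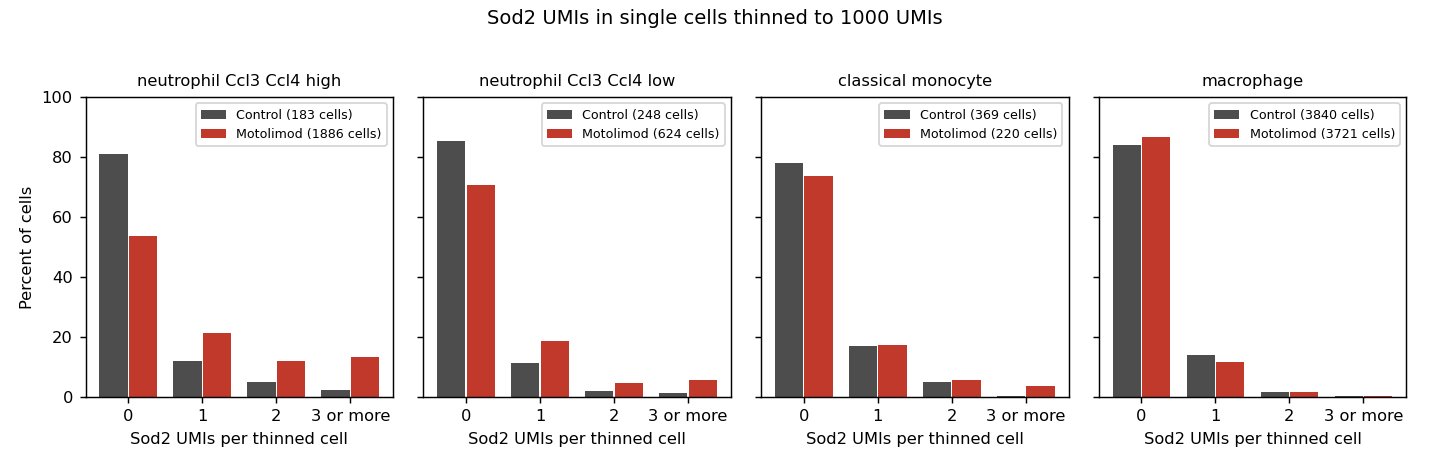
Percent of cells (y axis) with 0, 1, 2 or at least 3 Sod2 UMIs (x axis) after thinning to 1000 UMIs, in the control (grey) and motolimod (red) library. Motolimod neutrophils of both states have fewer cells at 0 and more at 3 or above, while 0.313% and 0.430% of macrophages hold at least 3.

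Macrophage states did not share 1 direction for Sod2. Cells with Cbr2, Tppp3, Folr2 and Igf1 (218 and 796 cells) held 218 CPM in control and 119 CPM in motolimod, 1.83-fold lower (ratio 0.547, 0.478 to 0.627). In the state with Ass1 and MHC class II genes (598 and 279 cells) the levels were 208 and 282 CPM (1.35), and in the Mmp12 state 172 and 208 CPM (1.21, 1.08 to 1.36). The cycling, Cd72 Vcam1 and remaining macrophages had ratios of 1.04, 1.06 and 1.05. In the motolimod library the Ass1 state therefore stood highest among the 8 macrophage groups, 2.96-fold above the lowest, the Lyve1 Cd209 state (95.1 CPM, 50.6 to 163, 30 cells), while in control the range over the 8 groups was 1.39-fold.

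Cybb, the catalytic subunit, was highest in monocytes, at 518 CPM (491 to 545) in control and 730 CPM (687 to 775) in motolimod (1.41, 1.30 to 1.53). Macrophages held 350 and 435 CPM (1.24, 1.22 to 1.27). Different clusters held many of the macrophages of each library, for this gene and the others: of the clusters named macrophage, cluster 2 had 26 control and 1360 motolimod barcodes, cluster 11 had 77 and 596, cluster 19 had 0 and 112, and cluster 3 had 759 and 217. Of the 6 macrophage groups with at least 50 cells in each library, 5 had a ratio above 1 with an interval that excluded 1, from 1.30 to 1.45, and the Mmp12 state stood at 380 and 366 CPM (0.963, 0.885 to 1.05). The Ass1 state had the highest macrophage level in both libraries, 446 and 606 CPM. In motolimod the Gpnmb Cd36 state had the lowest, 353 CPM. After thinning, 29.3% of control and 32.4% of motolimod macrophages held a Cybb UMI, whereas without thinning the order was the other way, 89.8% and 76.6%, at median depths of 15856 and 6341 UMIs.

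In neutrophils Cybb stood below the T cell level in control and slightly above it in motolimod. Its level was 40.4 CPM (29.5 to 54.1) in control and 63.8 CPM (57.7 to 70.4) in motolimod neutrophils, a ratio of 1.58 (1.16 to 2.20), and T cells held 59.6 and 53.2 CPM. The thinned share of cells with a UMI was 2.32% and 3.67% in neutrophils and 4.70% and 3.33% in T cells. C1qa, a macrophage gene, was at 35.9 and 32.1 CPM in neutrophils and 59.1 and 83.7 CPM in T cells, beside 24.8 and 5.47 CPM in keratin-positive cells. In these neutrophils the share is not above that of T cells beyond its interval, so no difference in Cybb is drawn from it. That reading holds only for the neutrophils kept, whose choice was made with Cybb values known: over the whole neutrophil gate Cybb stood at 153 and 113 CPM, above T cells in both libraries. The ratio also turned with the choice of cells: it was 0.740 with the neutrophil barcodes that carried monocyte or MHC class II RNA kept, and 3.73 with clusters in place of gates (14.7 and 54.8 CPM).

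Those barcodes deserve their own values, because the neutrophil levels of the membrane core moved with them. They were 105 of 571 control barcodes (18.4%) and 145 of 2795 motolimod barcodes (5.19%) that passed the neutrophil gate, and they were left out because they also passed the monocyte gate or had 0.5% or more of their UMIs in the MHC class II list. Their median depth was 7281 and 3358 UMIs, and Cd74, an MHC class II chaperone gene, stood at 9465 and 7915 CPM in them against 218 and 143 CPM in the neutrophils kept. Cybb was at 312 and 503 CPM and Cyba at 2337 and 1701 CPM in the barcodes left out. In the neutrophils kept, the monocyte list summed to 1306 and 865 CPM with 8 of 8 markers detected, and the macrophage list to 474 and 362 CPM with 10 of 10. The NK list was at 0 for all 6 markers in control and at 9.07 CPM in motolimod. What part such RNA plays in the neutrophil values was not tested.

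Dendritic cells had little Cybb, 63.4 CPM (54.7 to 73.0) in control and 125 CPM (104 to 150) in motolimod (1.98, 1.57 to 2.49). By subset, type 2 cells (52 and 35 cells) held 148 and 196 CPM, migratory cells (111 and 33) 49.0 and 125 CPM, and type 1 cells (60 and 13) 27.5 and 4.06 CPM, the last from 1 UMI. The subsets thus differed more from each other than the libraries did, and with the control library's mix of subsets the ratio was 1.48, under the 1.5-fold rule. T cells stood at a similar level to control dendritic cells, so in the migratory and type 1 subsets the control level was no higher than in T cells.

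Cyba, the partner of Cybb, was detected widely. Monocytes held 3020 and 2351 CPM (0.778, 0.748 to 0.810), macrophages 2563 and 2236 CPM (0.872, 0.865 to 0.880) and dendritic cells 1715 and 1942 CPM (1.13, 1.07 to 1.19). All 6 macrophage groups compared had intervals below 1, with ratios from 0.750 to 0.973. Neutrophils held 935 and 1178 CPM (1.26, 1.18 to 1.35). The Ccl3 Ccl4 high neutrophils stood at 638 and 1152 CPM (1.80, 1.61 to 2.03), and the low cells at 1179 and 1264 CPM (1.07, 0.982 to 1.17). The ratio over all neutrophils was 0.815 with the barcodes carrying monocyte or MHC class II RNA kept and 0.759 with all mixed droplets kept. T cells had 1292 and 1181 CPM and keratin-positive cells 157 and 157 CPM, so Cyba was lower outside leukocytes than in any leukocyte class.

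**Figure D2:**
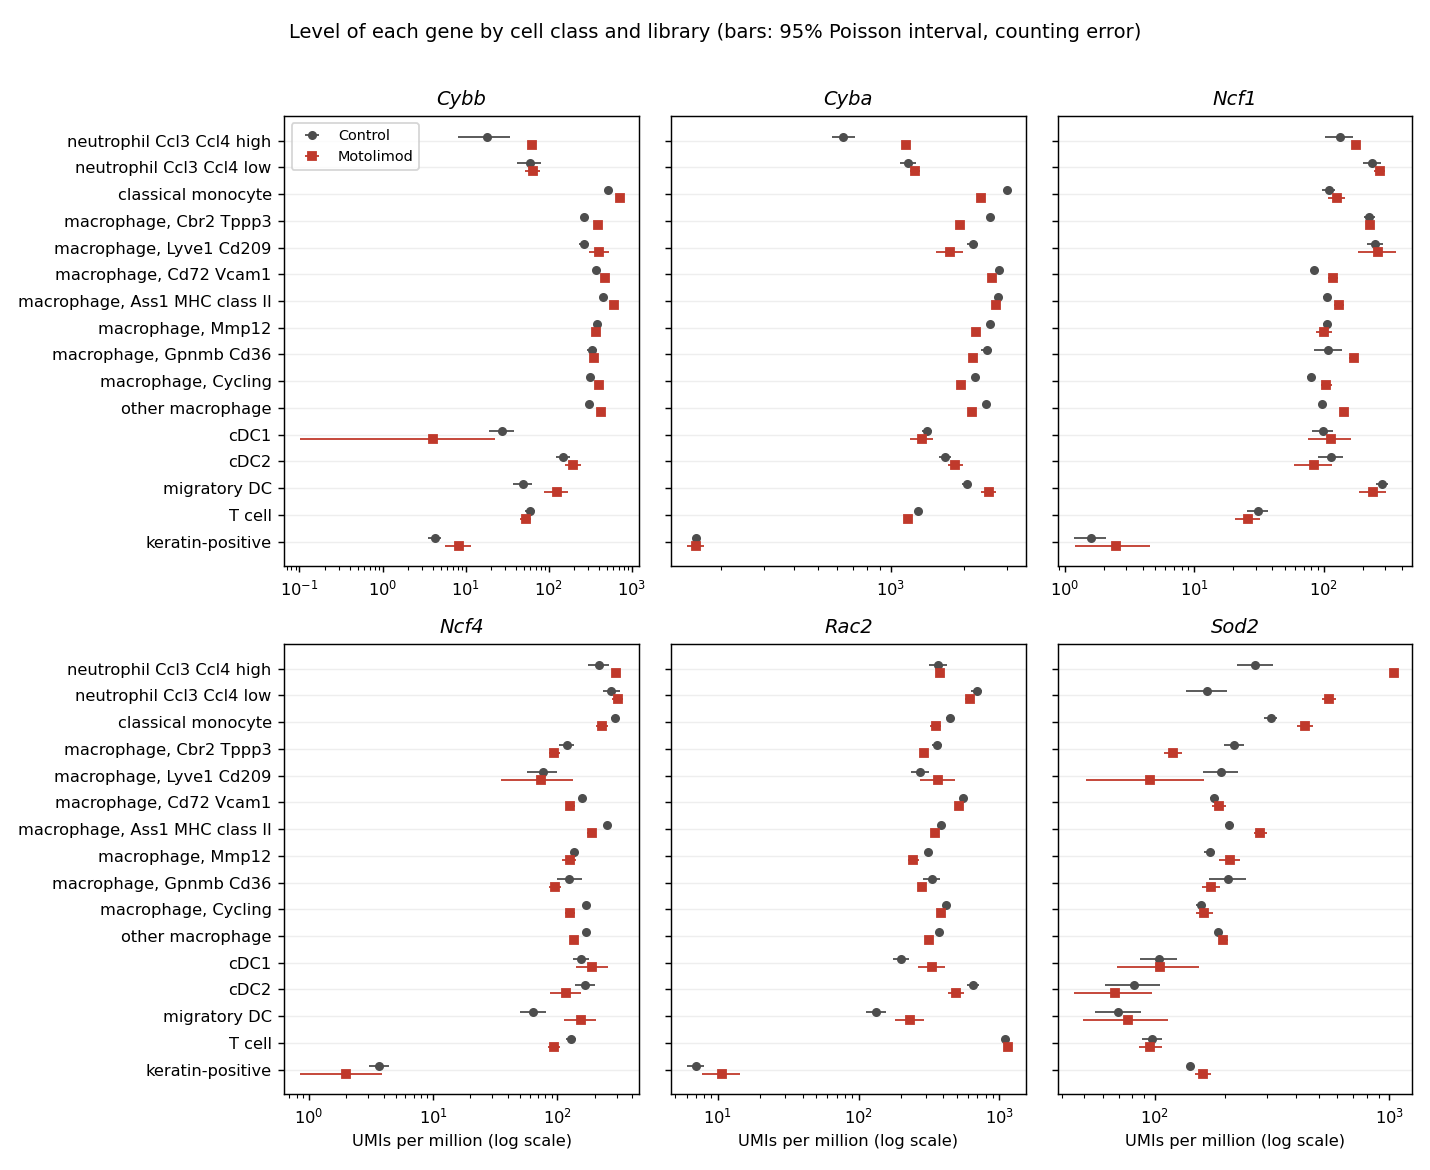
CPM (x axis, log scale) of each gene in each cell class (y axis), for the control (grey circles) and motolimod (red squares) library, with 95% Poisson intervals. Sod2 separates the libraries in both neutrophil states, while Cybb and Ncf1 separate cell classes far more than libraries.

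Ncf1, the organiser subunit, followed another order over classes than Cybb. Its highest control levels were in migratory dendritic cells (284 CPM, 254 to 317), Lyve1 Cd209 macrophages (250 CPM, 215 to 289), Ccl3 Ccl4 low neutrophils (238 CPM, 200 to 279) and Cbr2 Tppp3 macrophages (225 CPM). Neighbours in this order had overlapping intervals, and the Cbr2 Tppp3 state was clear of the next, the Ccl3 Ccl4 high neutrophils at 133 CPM (103 to 169). In motolimod the same 4 groups led, at 240, 263, 271 and 230 CPM. Neutrophils as a whole stood at 190 and 198 CPM (1.04, 0.898 to 1.21) and monocytes at 109 and 126 CPM (1.15, 0.952 to 1.38), both with intervals that include no difference. T cells held 30.9 and 26.1 CPM and keratin-positive cells 1.59 and 2.49 CPM.

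Macrophages as a whole had 98.7 and 147 CPM of Ncf1, a ratio of 1.49 (1.43 to 1.54) just under the 1.5-fold rule. The Cbr2 Tppp3 state, which stood at 225 and 230 CPM, was 218 of 3869 control and 796 of 3806 motolimod macrophages. With the control library's mix the ratio was 1.29. Within groups it was 1.48 in the remaining macrophages, 1.39 in the Cd72 Vcam1 state, 1.33 in cycling cells and 0.956 (0.813 to 1.12) in the Mmp12 state, and the Ass1 state stood at 105 and 131 CPM. After thinning, 10.8% (9.84 to 11.8) and 15.9% (14.7 to 17.1) of macrophages held an Ncf1 UMI, against 1.83% and 1.56% of T cells.

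Ncf4 was lower in the motolimod library in monocytes and macrophages, and by less than 1.5-fold in each. Monocytes had 291 and 230 CPM (0.791, 0.694 to 0.899) and macrophages 171 and 129 CPM (0.751, 0.724 to 0.778). All 6 macrophage groups had a ratio below 1, from 0.739 in cycling cells to 0.914 in the Mmp12 state, and 5 of their intervals excluded 1. Neutrophils held 246 and 299 CPM (1.22, 1.07 to 1.39). Migratory dendritic cells had 63.8 and 154 CPM, a ratio of 2.40 (1.64 to 3.51) over 111 and 33 cells, too few motolimod cells to be compared under the limit of 50. T cells held 129 and 94.0 CPM, so Ncf4 was not particular to phagocytes here, and keratin-positive cells 3.68 and 1.99 CPM.

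Rac2, the haematopoietic GTPase, was highest in lymphocytes. T cells held 1095 and 1145 CPM and the 21 and 78 NK cells 1122 and 1241 CPM. Neutrophils stood at 544 and 432 CPM (0.794, 0.727 to 0.869), monocytes at 446 and 354 CPM (0.793, 0.714 to 0.879), macrophages at 419 and 346 CPM (0.825, 0.807 to 0.844) and dendritic cells at 279 and 370 CPM (1.33). Within the neutrophil states the ratio was 1.03 (0.883 to 1.20) in Ccl3 Ccl4 high cells and 0.892 (0.793 to 1.00) in low cells. In control the low cells held 1.87-fold more Rac2 than the high cells, and with the control library's mix of states the ratio over all neutrophils was 0.933. All 6 macrophage groups compared had intervals below 1. Among dendritic cells, type 2 cells led with 652 and 494 CPM.

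Read by class, few of the 6 genes passed 1.5-fold. All 6 were measured in each of the 4 classes. In neutrophils 2 were higher by the rule (Sod2, and Cybb, from which no difference is drawn) and 0 lower, where 27.3% of 5204 measured genes were higher and 12.8% lower. The median log2 ratio of all neutrophil genes was 0.19, and relative to it only Sod2 (3.83) passed, Cybb being at 1.38, with 18.4% of genes higher and 19.3% lower. In monocytes none was higher or lower (10.1% and 9.34% of 6844 genes), and none in macrophages (8.49% and 4.94% of 7329 genes). Dendritic cells had 1 higher, Cybb, and 0 lower (14.4% and 7.47% of 7040 genes, or 11.4% and 9.19% after scaling to the median gene). Outside phagocytes, 0 of 6 were higher and 0 lower in T cells (11.4% and 5.94% of 7655 genes), and 0 of the 2 measured in keratin-positive cells, Cyba and Sod2 (2.14% and 1.48% of 7518 genes). A count of 1 or 2 of 6, with Sod2 among them, is near these backgrounds. So few genes cannot show or exclude a difference of the oxidase as a group, and differences under 1.5-fold are not counted. Of 6 macrophage groups, intervals lay below 1 in 6 for Cyba and Rac2 and in 5 for Ncf4. They lay above 1 in 5 for Cybb and in 4 for Ncf1.

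Ccl3 Ccl4 high neutrophils had the most, 3 higher by the rule and 0 lower, against 38.1% and 14% of 4842 genes. These were Sod2, Cyba, and Cybb at 17.9 and 63.6 CPM, the control level from 9 UMIs and no difference drawn. The median log2 ratio of all genes there was 0.33, and the count of 3 is not relative to it. Cyba ranked 1270th of the 4842 genes. The low neutrophils had 1 higher, Sod2, and 0 lower (28.6% and 8.73% of 5592 genes). The Cbr2 Tppp3 macrophages had 0 higher and 1 lower, Sod2 (11.9% and 8.29%). None of the 6 passed in the Cd72 Vcam1 (5.08% and 2.26%), Ass1 (7.39% and 2.77%), Mmp12 (6.97% and 4.63%), cycling (6.4% and 2.88%) or remaining macrophages (9.18% and 5.75%).

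**Figure D3:**
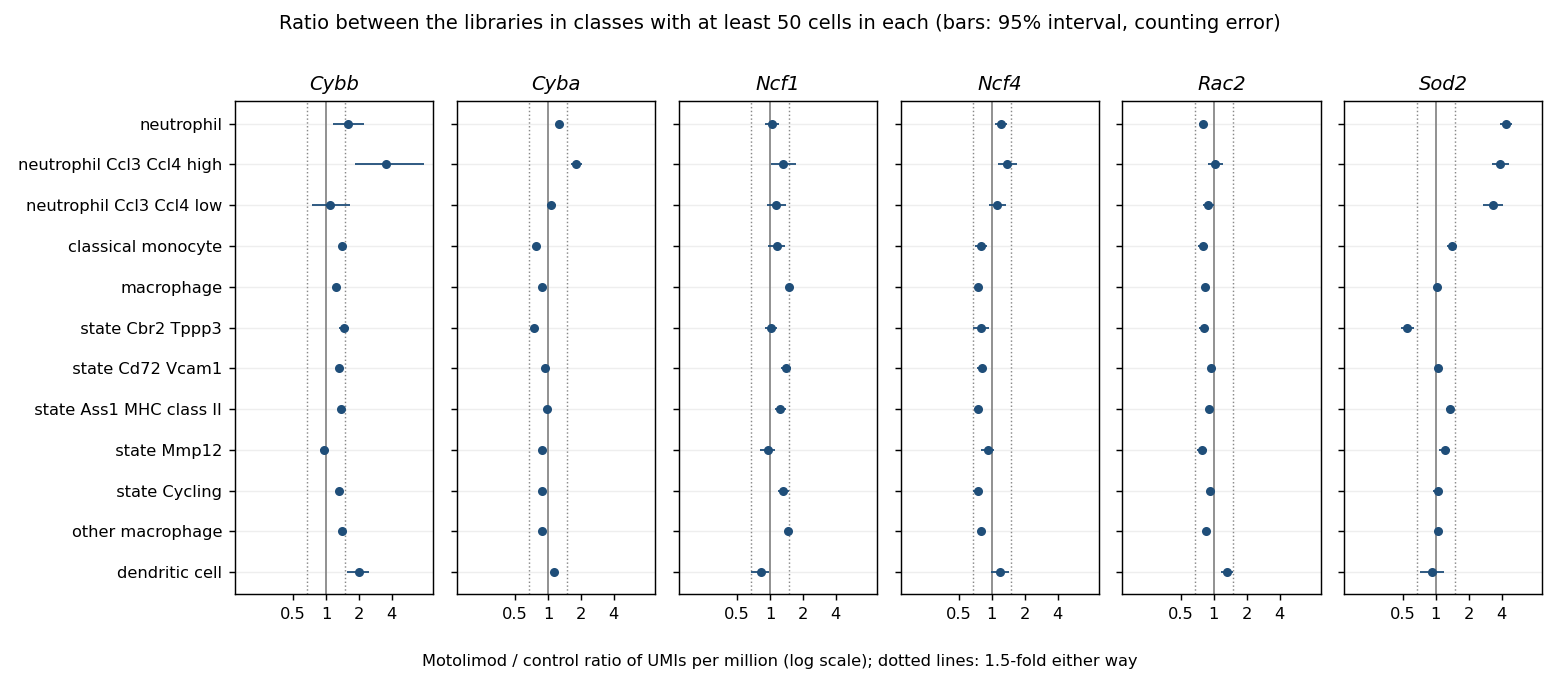
Ratio of motolimod to control CPM (x axis, log scale) of each gene in each class with at least 50 cells in both libraries (y axis), with 95% intervals for counting error and dotted lines at 1.5-fold. Sod2 lies beyond the line on opposite sides in neutrophils and in Cbr2 Tppp3 macrophages, and the subunits lie mostly between the lines.

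The number of the 5 subunits seen in a single cell was also counted, in cells with at least 2000 UMIs. This left out 247 of 466 control and 1317 of 2650 motolimod neutrophils, and 135 and 524 macrophages. The neutrophil values below therefore describe the 219 and 1333 deeper cells only. In cells thinned to 2000 UMIs, a mean of 1.95 subunits was seen in control and 2.02 in motolimod neutrophils, 2.76 and 2.70 in monocytes, 2.42 and 2.40 in macrophages and 1.86 and 2.11 in dendritic cells. T cells showed 2.05 and 1.96, with Rac2 and Cyba at the highest levels of the 5 and Ncf4 and Cybb also detected. Keratin-positive cells showed 0.262 and 0.346. At least 3 of the 5 were seen in 61.8% and 56.3% of monocytes, 45.7% and 44.5% of macrophages, 32.0% and 32.6% of neutrophils and 20.2% and 18.0% of T cells. Dendritic cells had the widest gap, 21.6% of 222 control and 34.2% of 79 motolimod cells. Type 2 cells, the subset highest in Cybb and Rac2, were 52 of 223 control and 35 of 81 motolimod dendritic cells. The part of this mix in the gap was not tested.

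Other parts and partners of the oxidase were mostly within 1.5-fold. Of 6 measured in neutrophils 0 were higher and 0 lower, beside 27.3% and 12.8% of all genes. Their median log2 ratio was 0.22 beside 0.19 for all genes. Rac1, the ubiquitous GTPase that can replace Rac2, stood at 625 and 723 CPM (1.16, 1.07 to 1.26). Cybc1, a chaperone of the membrane core, was at 16.2 and 20.1 CPM in neutrophils and at 29.4 and 48.5 CPM in macrophages (1.65, 1.54 to 1.76). It was the only 1 of 7 to pass in macrophages, where 8.49% of all genes were higher and 4.94% lower. Hvcn1, the proton channel that offsets the oxidase's charge, was under the minimum in neutrophils at 1.80 and 11.3 CPM, and at 13.9 and 11.7 CPM in macrophages. The 9 genes of other NADPH oxidases (Nox and Duox enzymes and their partners) were all under the minimum of 10 CPM in each of the 4 classes.

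Among kinases and exchange factors known to act on the oxidase, 3 of 11 measured in neutrophils were higher and 1 lower, beside 27.3% and 12.8% of all measured genes. The Rac exchange factors Vav3 (27.8 and 69.8 CPM, 2.51, 1.74 to 3.73) and Dock2 (44.0 and 73.2 CPM, 1.66) and the protein kinase C gene Prkcd (116 and 183 CPM, 1.58) were higher, and the phosphoinositide kinase gene Pik3cd was lower (53.9 and 31.9 CPM, 0.592, 0.441 to 0.804). The list's median log2 ratio was -0.11. In macrophages 1 of 12 was higher, the p38 kinase gene Mapk14 (40.3 and 66.3 CPM, 1.65), and 0 lower. There 8.49% of all genes were higher and 4.94% lower.

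Enzymes that remove superoxide and peroxide, other than Sod2, went both ways in neutrophils. Of 9 measured, 5 were higher and 2 lower, beside 27.3% and 12.8% of all genes, all without scaling to the median gene. The cytosolic dismutase Sod1 stood at 9.88 and 41.9 CPM (4.24, 2.33 to 8.61), and the peroxiredoxins Prdx1 (207 and 351 CPM, 1.70) and Prdx5 (2119 and 3371 CPM, 1.59) and the thioredoxin reductase gene Txnrd1 (122 and 198 CPM, 1.62) were higher too. All 5 higher genes but Sod1 had ratios of 1.70 or less. The count of 5 is not relative to the median log2 ratio of all neutrophil genes, 0.19, and scaling to it lowers these ratios. Prdx2 (37.7 and 19.3 CPM, 0.511) and the glutathione peroxidase Gpx1 (826 and 469 CPM, 0.569) were lower. Sod1 was also the only 1 of 11 higher in macrophages (52.5 and 114 CPM, 2.17, 2.07 to 2.27), beside 8.49% of all genes. It passed in monocytes (43.4 and 87.0 CPM, 2.00) and dendritic cells (74.2 and 120 CPM, 1.62) too. Unlike Sod2, Sod1 thus passed 1.5-fold in all 4 classes. The catalase gene Cat was under the minimum in neutrophils (5.39 and 3.56 CPM) and at 31.1 and 39.8 CPM in macrophages.

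Of the enzymes that make the NADPH the oxidase uses, 2 of 5 measured in neutrophils were higher and 0 lower, beside 27.3% and 12.8% of all genes. Both belong to the oxidative pentose phosphate pathway, Pgd (79.1 and 182 CPM, 2.30, 1.85 to 2.89) and G6pdx (19.8 and 36.1 CPM, 1.83, 1.18 to 2.97). In macrophages 0 of 6 were higher and 1 lower, beside 8.49% and 4.94% of all genes. The lower gene was the transketolase gene Tkt at 383 and 226 CPM (0.590, 0.575 to 0.606).

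Genes known to be induced by NF-kB, set beside Sod2, were higher in 4 of 15 cases in neutrophils and lower in 0, near the 27.3% of all genes higher there, with a median log2 ratio of 0.45 beside 0.19 for all genes. These were Tnf (195 and 934 CPM, 4.79, 4.18 to 5.51), the acute phase gene Saa3 (53.9 and 176 CPM, 3.26), the adhesion gene Icam1 (108 and 265 CPM, 2.46) and Tnfaip2 (613 and 1045 CPM, 1.71). In macrophages 8 of 15 were higher and 0 lower (8.49% and 4.94% of all genes, with a median of 0.59 beside 0.04). The chemokine gene Cxcl2 (750 and 2514 CPM, 3.35), Tnf (60.3 and 138 CPM, 2.29), Tnfaip2 (2.21) and Tnfaip3 (2.21) led, while Sod2 stood at 1.04 there. In the Cbr2 Tppp3 state, with Sod2 at 0.547, 1 of 15 was higher and 4 lower (11.9% and 8.29% of all genes). From 4 to 8 of 15 were higher and 0 lower in the Cd72 Vcam1, Ass1, Mmp12, cycling and remaining macrophages. Any relation to Sod2 was not tested. In monocytes 6 of 15 were higher and 1 lower (10.1% and 9.34% of all genes). In dendritic cells 4 of 14 were higher and 0 lower (14.4% and 7.47%).

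Granule and activation genes were higher in 6 of 10 measured cases in neutrophils and lower in 1, beside 27.3% and 12.8% of all genes. The siderophore-binding gene Lcn2 stood at 597 and 2767 CPM (4.63, 4.29 to 5.01), the collagenase gene Mmp8 at 65.6 and 216 CPM (3.29) and the formyl peptide receptor gene Fpr2 at 116 and 272 CPM (2.35). Camp was at 0.898 CPM in control, from 1 UMI, and 23.6 CPM in motolimod, a ratio of 26.3 (4.65 to 1047). Cd177 was lower (15.3 and 6.48 CPM, 0.424, 0.235 to 0.798). In macrophages 4 of 6 were higher and 1 lower (8.49% and 4.94% of all genes), led by Lcn2 at 1.69 and 20.8 CPM and Mmp8 at 5.84 and 28.3 CPM, with Mmp9 lower (ratio 0.213, 0.178 to 0.254). The neutrophil marker list in those macrophages summed to 241 and 360 CPM, with 10 of 10 markers detected, and S100a8 to 20.5 and 81.3 CPM. Its part in the macrophage values was not tested.

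Over 28 class and library points with at least 50 cells, the subunits did not share 1 pattern. Pearson's r of log2(CPM + 10) was 0.84 between Cybb and Cyba, 0.79 between Ncf4 and Rac2, 0.51 between Cybb and Ncf1 and 0.37 between Cybb and Rac2. Sod2 reached 0.42 with Ncf4 and at most 0.33 with the other 4. The points of a library share its free RNA and depth, so these values are a description. Among 5623 genes, the pattern of Cybb was most like that of the macrophage growth factor receptor gene Csf1r (0.97), itself a macrophage gate marker, and the Fc receptor gene Fcgr1 (0.97), that of Rac2 most like Ptprc (0.94), the gene of CD45, and Arhgap9 (0.94). Cyba came closest to Arrb2 (0.94) and Ucp2 (0.94), Ncf4 to Slfn2 (0.90) and Vav1 (0.90), Ncf1 to Gm34084 (0.90) and Marcks (0.90), and Sod2 to Slc31a1 (0.86) and C3 (0.85).

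**Figure D4:**
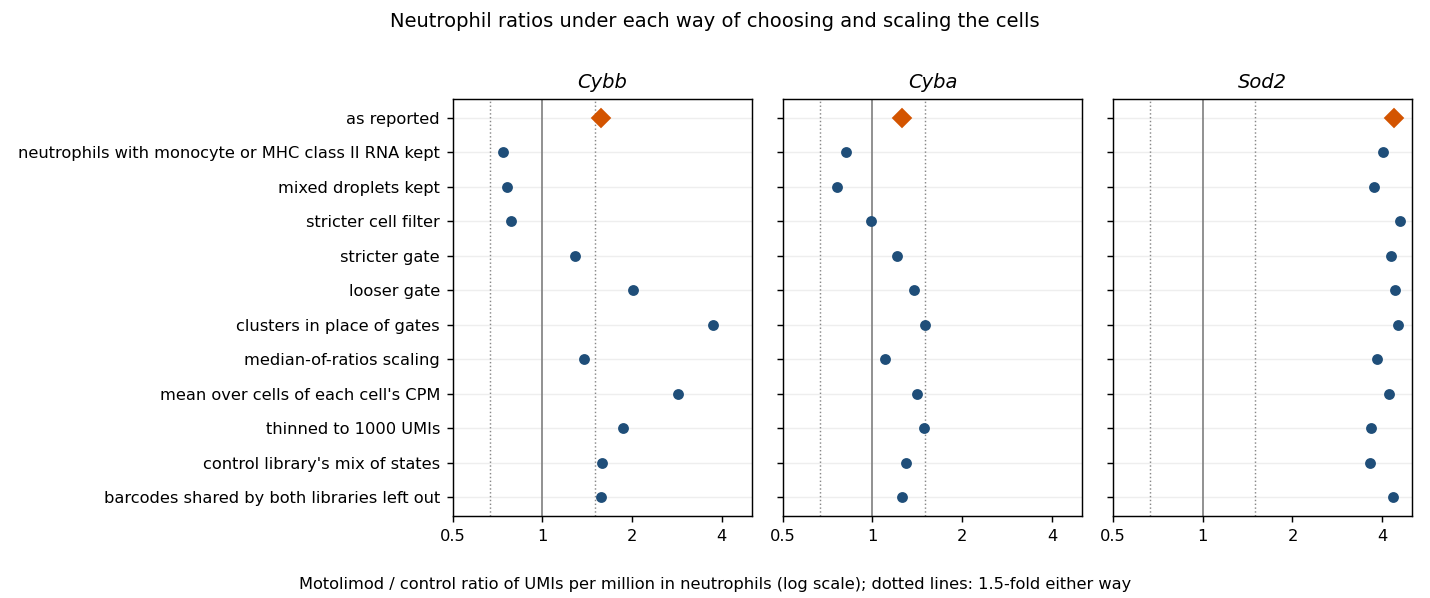
Ratio of motolimod to control CPM in neutrophils (x axis, log scale) for Cybb, Cyba and Sod2 under each way of choosing or scaling the cells (y axis), with the reported value as an orange diamond and dotted lines at 1.5-fold. Sod2 stays between 3.64 and 4.59, while Cybb runs from 0.740 to 3.73 and crosses 1.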

How the data were processed

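Raw UMI counts per gene and barcode, without normalization, were deposited by the authors for 1 control and 1 motolimod library, per the file headers. The build is mm10 per the submitters' processing notes, which name Cell Ranger 5.0.1, whereas 7.1.0 stands in the file headers. Whether intronic reads were counted is not given in the sources used here. The members and gene lists were chosen with earlier results of these data known.

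Barcodes with at least 300 genes, 800 UMIs and at most 10% mitochondrial UMIs were kept. Gates required a minimum share of a barcode's UMIs from a marker list (0.5% for neutrophils, 0.4% for macrophages and monocytes, 0.08% for T and dendritic cells, 0.04% for keratins) and at least 2 or 3 distinct markers. Dendritic cells and then monocytes were gated among barcodes that passed no other gate. No doublet caller was run: barcodes of more than 1 lineage, and neutrophil barcodes with monocyte RNA or 0.5% MHC class II UMIs, were left out. Cut-offs were set after seeing marker shares, and the neutrophil exclusion after seeing Cybb as well. Macrophage states took the list furthest over its cut-off, and 1125 and 1479 macrophages passed none. Cells near a cut-off are many: 270 of 2650 motolimod neutrophils lay within 1.25-fold of the Ccl3 Ccl4 limit.

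Counts were summed per class and library. Levels have exact Poisson, ratios exact conditional binomial and shares exact Clopper-Pearson 95% intervals, for counting error only. Cells were thinned to 1000 UMIs without replacement, leaving out 35 control and 140 motolimod neutrophils and 29 and 85 macrophages as shallower. The named genes are the 6 genes, Rac1, Cybc1, Hvcn1, Sod1 and Cat, up to 4 genes each way per pathway list at 1.5-fold in neutrophils and macrophages, and the genes most alike in pattern. One gene of the rule is not reported here. Python 3.11.15, numpy 2.4.6, scipy 1.17.1, pandas 2.3.3, scanpy 1.11.5 and leidenalg 0.10.2 were used, and the ratio script was tested on simulated data.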

Additional observations from a re-analysis of the deposited data

Results flagged for a closer look

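Sod2 differed in direction between groups of cells under the same contrast: its ratio of motolimod to control was 4.37 in neutrophils and 0.547 in Cbr2 Tppp3 macrophages, and the difference between these ratios was not tested. The 646 control and 1117 motolimod barcodes outside every gate, which enter no comparison above, also had higher levels with motolimod. There Sod2 stood at 199 and 527 CPM, a ratio of 2.64 (2.48 to 2.82), and Cybb at 169 and 281 CPM, a ratio of 1.66 (1.54 to 1.79). Of the 7446 genes measured in these barcodes, 14.6% were at least 1.5-fold higher and 14.4% lower. Their summed Ccl3, Ccl4 and Cstb level was 1989 and 7387 CPM and their neutrophil marker list 608 and 878 CPM, with all 10 neutrophil markers detected in both libraries. The part of ungated neutrophils in these values was not tested.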

How the results depend on the processing

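No paired analysis was possible because each group is 1 library with no replicate number. Of 240 ratios of the 6 genes in 4 classes under alternatives, 221 kept their direction. Sod2 in neutrophils ranged from 3.64 to 4.59 over 11 alternatives. Cybb in neutrophils turned to 0.783 with a stricter cell filter, 0.763 with mixed droplets kept and 0.740 with neutrophils carrying monocyte or MHC class II RNA kept, the last an alternative chosen after seeing the data. Without thinning, the difference in share of macrophages with a UMI turned to -13.2 percentage points for Cybb and -7.14 for Ncf1. The causes were not tested.

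The number of the 6 genes higher in neutrophils, 2 as reported, was 1 with the stricter cell filter, mixed droplets kept, monocyte or MHC class II RNA kept, scaling to the median gene, a stricter gate or a 2-fold rule. In macrophages, 0 as reported, it was 1 with mixed droplets kept, with means over cells and after thinning, where 1 was lower. In monocytes, 0 as reported, it was 1 with clusters. In dendritic cells, 1 as reported, it was 0 at 2-fold and 2 after thinning, where 1 was lower.

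The 49 pathway genes counted here leave out the NF-kB and granule lists. In neutrophils 6, 11, 9 and 5 genes of 4 lists were measured. Of these, 10 were higher and 3 lower, beside 27.3% and 12.8% of all genes. Scaling to the median gene gave 4 and 6, where 18.4% of all genes were higher and 19.3% lower. Mixed droplets kept gave 6 and 6, and monocyte or MHC class II RNA kept 6 and 5. The stricter cell filter gave 6 lower and a 50 CPM minimum 1 lower. In monocytes 6 were higher and 1 lower, beside 10.1% and 9.34% of all genes. These became 2 and 2 with clusters and 3 and 2 with a stricter gate, with 2 lower after thinning. In macrophages 3 were higher and 1 lower, beside 8.49% and 4.94% of all genes. These became 5 and 3 with means over cells and 6 and 3 after thinning. A looser gate (chosen after seeing the data) or median scaling gave 2 lower. In dendritic cells 4 were higher and 3 lower, beside 14.4% and 7.47% of all genes. There 2 were higher with clusters or median scaling, and 5 were lower with a stricter gate or after thinning and 1 at 50 CPM. Shares of all genes under the settings other than median scaling are not set beside these counts. Control neutrophils were few and shallow, so Cybb there rests on 45 UMIs.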
